A study of Mus musculus with 13 samples.

Results

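Wnt7b and the core of canonical Wnt signaling were followed as 10 genes in mouse endothelial cells (ECs) with and without Apelin, the peptide ligand encoded by Apln. The genes, taken by symbol, were the ligand Wnt7b, the receptors Fzd4 and Fzd6, the co-receptors Lrp5 and Lrp6, the transducer Ctnnb1, the transcription factors Lef1 and Tcf7, and the feedback genes Axin2 and Apcdd1. They were 10 of the 24984 genes listed for tumor ECs and of the 24421 listed for sprout ECs. Wnt7b was selected because its counts were low in the Apelin-depleted tumor ECs, so its tumor values are a description and carry no test.

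In canonical Wnt signaling, a secreted Wnt protein binds a Frizzled receptor together with Lrp5 or Lrp6, β-catenin (Ctnnb1) escapes degradation, and it acts in the nucleus with factors of the Tcf and Lef family. Axin2 is a scaffold of the β-catenin destruction complex that is itself a common target of the pathway, and Apcdd1 is a membrane protein that dampens Wnt signaling. In vessels the pathway is best known for brain and retina, where neural Wnt7a and Wnt7b act on ECs and where Fzd4 with its partner Tspan12 receives the ligand Norrin.

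The tumor ECs were DAPI-, CD45-, CD31+, CD105+ cells sorted from E0771 tumors, which grow from a mouse mammary carcinoma line implanted in the mammary fat pad, and were harvested at day 25. The Apelin-depleted group had shApln E0771 tumors in Apln-/- mice (n = 3 libraries), and the Apelin wild-type group had shRenilla E0771 tumors in Apln+/+ mice (n = 6), all on C57BL6/J. Host and tumor cells thus lost Apln together. Each tumor library was made by Smart-Seq2 from 100 cells, and whether a library stands for 1 mouse is not given in the sources used here.

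The sprout ECs were CD31+ cells sorted from embryoid bodies (EBs), aggregates of differentiating mouse embryonic stem cells that sprout vessels in collagen, and all EBs received VEGFA164 at 30 ng/mL. Apln STOP cells (labelled sense, n = 2) carry a gene trap that interrupts Apln, and Apln GO cells (labelled anti-sense, n = 2) are sister cells in which Cre had turned the trap, both on C57BL/6x129. Apelin Pyr13 at 1000 nM or DMSO was added after sprouting began. The labels do not say which library received which, and by the legends of the study the STOP cells had DMSO and the GO cells had Apelin, so genotype and added peptide cannot be told apart. Nothing in the labels says that libraries of a group came from separate cultures, so p-values measure the spread between these libraries, which may be technical.

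Total counts per library were 4661044 to 14455093 in the tumor ECs and 12327030 to 16804071 in the sprout ECs, and a floor of 3 counts corresponded to 0.208 to 0.644 CPM (counts scaled to library size) and 0.179 to 0.243 CPM. In tumor ECs Apln was at 796 ± 267 CPM (SD, n = 6) in the wild-type group and fell to 7.67 ± 4.87 CPM (SD, n = 3) in the Apelin-depleted group. In the libraries labelled STOP it was not lower, at 73.1 ± 9.95 CPM against 62.1 ± 5.49 CPM (SD, n = 2 each), with a log2 fold change of 0.24 (SE 0.16, adjusted p = 0.367 by edgeR's quasi-likelihood test). Whether these reads came from trapped transcript outside the interrupted part of Apln was not tested, so the Apln value speaks neither for nor against the labels, and directions in the sprout ECs refer to what the libraries are labelled. The listed markers of ECs, such as Cdh5, Kdr and Tek, were present in every library: the 12 summed to 7493 to 13943 CPM in the tumor ECs, to 2426 to 2630 CPM in the libraries labelled GO, and to only 659 to 896 CPM in those labelled STOP.

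Wnt7b lies on mouse chromosome 15, at chr15:85535437-85581821 of GRCm38.p6. In Apelin-depleted tumor ECs it was counted 4, 26 and 4 times in replicates 1 to 3, which is 0.680, 1.83 and 0.487 CPM. In Apelin wild-type tumor ECs the lowest library held 4.93 CPM (27 counts), the median was 19.2 CPM and the highest library held 44.3 CPM (453 counts). Every Apelin-depleted library was below every wild-type library, and wild-type libraries differed among themselves by almost an order of magnitude. The means were 0.999 ± 0.726 CPM (SD, n = 3) and 21.5 ± 15.2 CPM (SD, n = 6), and the fitted log2 fold change was -4.37 (SE 0.95), which is 20.7-fold lower. A separation of this kind, lower in all depleted libraries, was seen in 1.27% of the 13073 genes tested, and nothing is read from it for a gene chosen by that contrast.

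In the sprout ECs, which the selection did not use, the order was the other way. Wnt7b stood at 31.4 and 18.2 CPM (464 and 223 counts) in the libraries labelled STOP and at 7.55 and 10.4 CPM (128 and 129 counts) in those labelled GO. Both libraries labelled STOP were above both labelled GO, with a gap between the groups narrower than that within the pair labelled STOP. Wnt7b rose with a log2 fold change of 1.47 (SE 0.32, 2.77-fold, adjusted p = 0.0399 by edgeR's quasi-likelihood test, adjusted by Benjamini and Hochberg's method over 14557 genes). The call is close to its threshold: the adjusted p was 0.0551 with RSEM expected counts, and 0.217, 0.222 and 0.0511 without STOP replicate 1, GO replicate 1 or GO replicate 2. Over all alternatives it ran from 3.87e-05, with the replicate numbers crossed, to 0.222. The difference between the tumor and the sprout changes was not tested, since the libraries were made and counted differently.

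**Figure D1:**
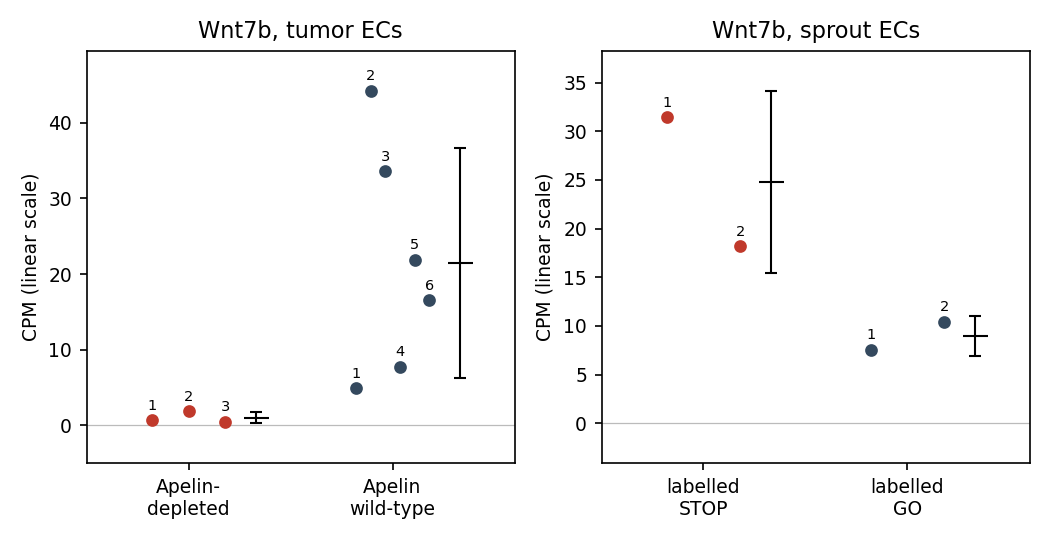
Wnt7b in CPM on a linear axis in each tumor EC library (left) and each sprout EC library (right), with the replicate number above each point and a bar for the mean ± SD. The 3 Apelin-depleted libraries lie at 0.487 to 1.83 CPM below all 6 wild-type libraries, and the 2 libraries labelled STOP lie above the 2 labelled GO.

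Set among the 19 Wnt ligand genes by level per length, Wnt7b was first in wild-type tumor ECs, at 6.36 ± 4.50 CPM per kilobase (SD, n = 6). Wnt9b followed at 2.302 ± 3.30 CPM per kilobase, with libraries from 0 to 8.17, so the ranges of the leading pair overlapped. In Apelin-depleted tumor ECs Wnt7b was 8th at 0.296 ± 0.215 CPM per kilobase (SD, n = 3), and Wnt2, a ligand made by some ECs, was first at 2.24 ± 1.97. In the sprout ECs Wnt7b was first in the libraries labelled STOP at 10.1 ± 3.93 TPM (RSEM's level per length, SD, n = 2), above Wnt4 at 7.11 ± 3.37, whose 2 libraries overlapped with it. In those labelled GO it was 5th at 4.16 ± 0.615 TPM, and Wnt4 led at 15.5 ± 10.4 TPM. Wnt7a, the closest relative of Wnt7b, was low in both sets, at 0.537 ± 0.635 CPM per kilobase in wild-type tumor ECs and at 0.160 ± 0.0707 TPM in the libraries labelled STOP.

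**Figure D2:**
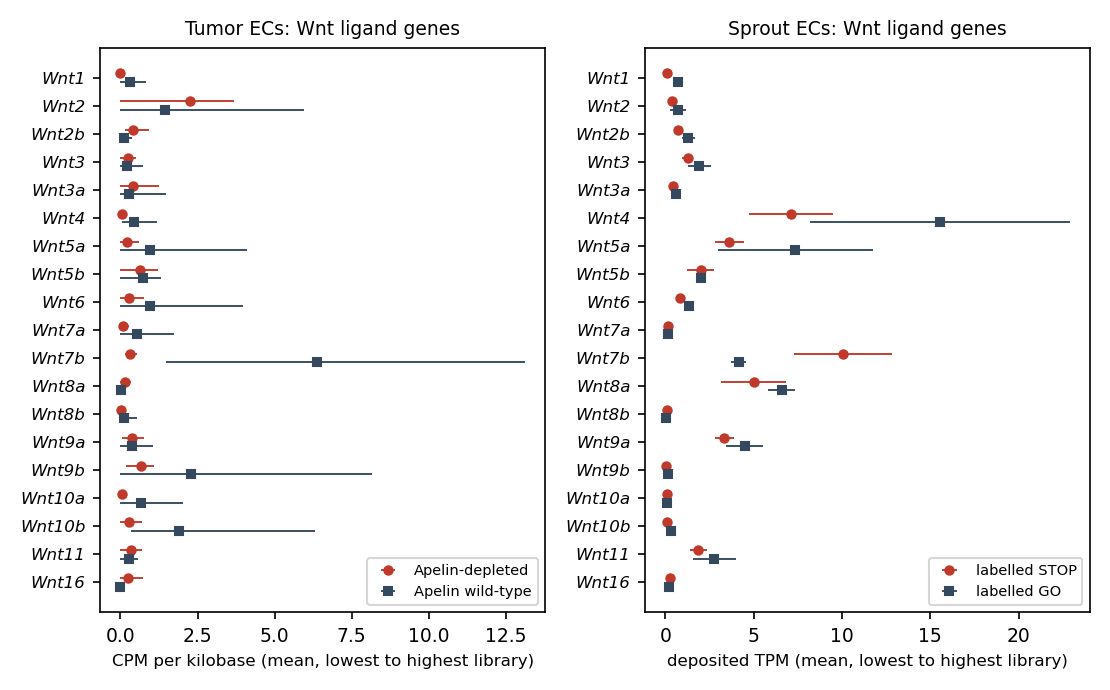
Level per length of the 19 Wnt ligand genes, as CPM per kilobase in tumor ECs (left) and as deposited TPM in sprout ECs (right), with points for group means and lines from the lowest to the highest library. Wnt7b has the highest mean in wild-type tumor ECs (6.36 CPM per kilobase) and in the libraries labelled STOP (10.1 TPM).

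Over the 9 tumor libraries, 3 genes followed Wnt7b most closely, by the root mean square difference of centred log2(CPM + 1). They were Gpc1 (0.657), a cell surface heparan sulfate proteoglycan, Ereg (0.741), the EGF family ligand epiregulin, and Ptgr1 (0.801), prostaglandin reductase. The same measure was 1.88 for the median gene, and Wnt7b itself spread by 1.75 around its mean. Gpc1 was at 10.5 ± 6.63 CPM (SD, n = 3) in Apelin-depleted and 75.9 ± 70.0 CPM (SD, n = 6) in wild-type libraries. Ereg was at 0.631 ± 0.598 and 18.2 ± 9.77 CPM, and Ptgr1 at 0.391 ± 0.351 and 11.8 ± 7.03 CPM. These genes were picked for their likeness to a gene that was itself picked for this contrast, so their levels too are a description.

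The receptors did not follow the ligand in the tumor ECs. Fzd4, the Norrin and Wnt receptor of ECs, was at 43.8, 47.2 and 72.5 CPM in the Apelin-depleted libraries, and in the wild-type libraries its lowest, median and highest values were 11.98, 57.9 and 92.5 CPM. The wild-type range enclosed all depleted libraries, and the log2 fold change was 0.08 (SE 0.51). Fzd6, a Frizzled also known for planar cell polarity, was at 45.4, 76.6 and 50.4 CPM in the Apelin-depleted libraries, inside the wild-type range of 20.6 to 99.6 CPM, with a log2 fold change of 0.24 (SE 0.47). Per length, these were the leading pair of the 10 Frizzled genes in both tumor groups. Fzd4 stood at 14.8 ± 4.25 and Fzd6 at 14.1 ± 4.11 CPM per kilobase in Apelin-depleted ECs, and at 14.0 ± 7.97 and 11.9 ± 7.19 in wild-type ECs, so neither group ordered the pair beyond its spread.

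Fzd4 fell in the sprout ECs. It was at 10.4 and 10.6 CPM (153 and 130 counts) in the libraries labelled STOP and at 30.2 and 19.5 CPM (512 and 241 counts) in those labelled GO. The pair labelled STOP was nearly level, and both were well under the lower library labelled GO. The log2 fold change was -1.25 (SE 0.26, 2.37-fold lower, adjusted p = 0.0352 by edgeR's quasi-likelihood test). This call was also near its limit: the adjusted p was 0.0502 with RSEM expected counts, and 0.196, 0.0810 and 0.222 without STOP replicate 1, STOP replicate 2 or GO replicate 1, in a range over all alternatives of 0.000287 to 0.222.

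Markers of ECs as a whole moved with Fzd4. All 12 listed EC markers were lower in the libraries labelled STOP, and their median log2 fold change was -1.96. Both thresholds were passed by 11 of them, against 3.03% of all genes decreased. Of the 10 pluripotency markers, which include stem cell transcription factors, 9 were higher and 1 passed, against 0.852% of all genes increased. Their median was 0.87, and they summed to 5548 to 5717 CPM in the libraries labelled STOP against 2241 to 3614 CPM in those labelled GO. Against the EC median, Fzd4 stood 0.72 higher and Wnt7b 3.43 higher on the log2 scale. In such bulk samples fewer cells of a type and less RNA per cell cannot be told apart, and the part of this shift in the values of Fzd4, Wnt7b and the other 8 genes was not tested.

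Per length, Fzd4 was last of the 10 Frizzled genes in the libraries labelled STOP, at 3.96 ± 0.0141 TPM, and 6th in those labelled GO, at 10.6 ± 4.02 TPM (SD, n = 2 each). Fzd7, a Frizzled of early embryonic cells, led in both at 55.6 ± 8.12 and 49.3 ± 5.41 TPM, whereas it was 6th in both tumor groups, below 1 CPM per kilobase on average. Fzd6 was at 20.5 and 21.8 CPM in the libraries labelled STOP and at 34.0 and 30.6 CPM in those labelled GO. The groups were apart by more than their spread, yet the log2 fold change of -0.62 (SE 0.18) did not pass (adjusted p = 0.0813 by edgeR's quasi-likelihood test).

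**Figure D3:**
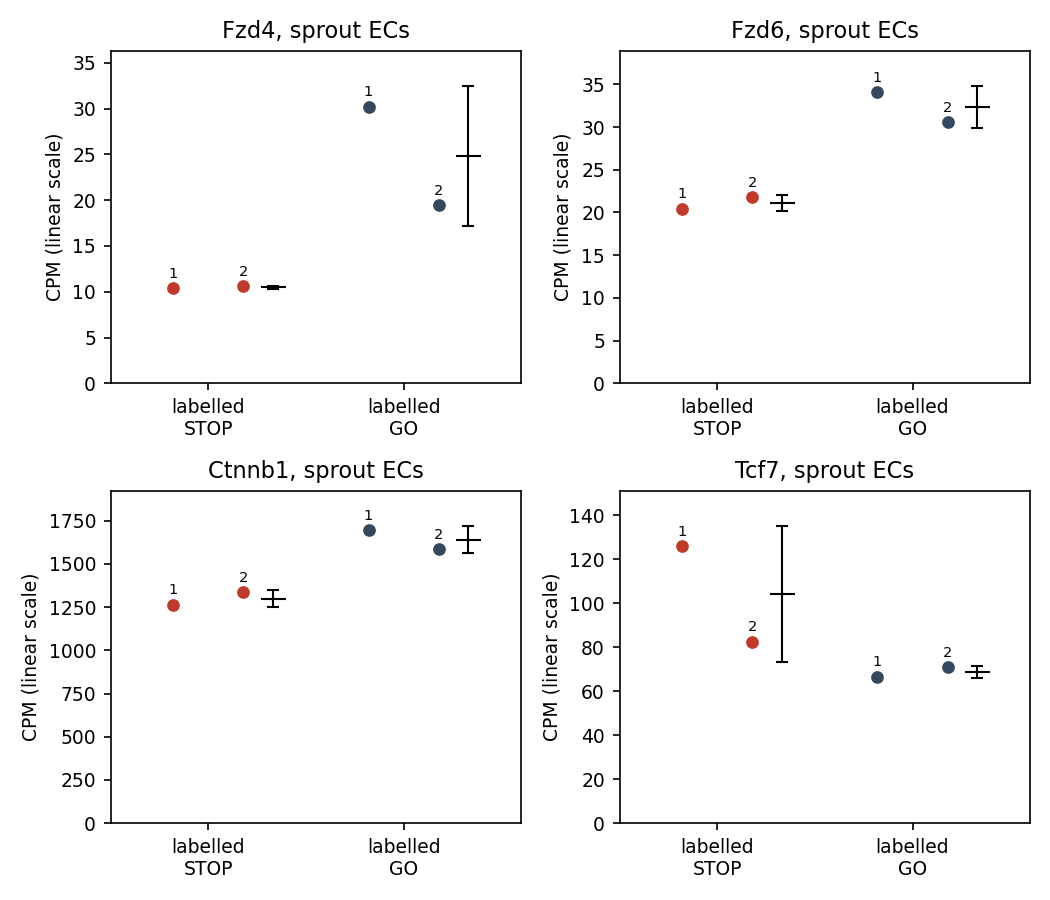
Fzd4, Fzd6, Ctnnb1 and Tcf7 in CPM in the sprout EC libraries on linear axes from 0, with the replicate number above each point and a bar for the mean ± SD. Fzd4, Fzd6 and Ctnnb1 lie lower and Tcf7 lies higher in both libraries labelled STOP, and of these only Fzd4 passed the test.

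The co-receptors were measured well in both sets. Lrp5 was at 75.6, 96.4 and 70.4 CPM in the Apelin-depleted tumor ECs, and in the wild-type libraries its lowest, median and highest values were 19.8, 44.8 and 62.3 CPM. All depleted libraries were above all wild-type libraries, a separation seen in 1.06% of genes tested, with a log2 fold change of 0.88 (SE 0.38). The log2 fold change stayed between 0.73 and 1.00 when any single library was left out, and the gene did not pass (unadjusted p = 0.0349, adjusted p = 1.00 by edgeR's quasi-likelihood test). The EC marker list lay higher in the same direction, with 11 of its 12 genes higher and a median log2 fold change of 0.33, and its part in the Lrp5 values was not tested. Lrp5 in the sprout ECs was at 105 and 89.7 CPM in the libraries labelled STOP and at 116 and 85.4 CPM in those labelled GO, which overlapped (log2 fold change -0.05, SE 0.18).

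Lrp6 overlapped between the tumor groups, at 21.4, 45.9 and 52.8 CPM in Apelin-depleted libraries against 27.7 to 75.6 CPM in wild-type libraries (log2 fold change -0.25, SE 0.43). It was at 127 and 135 CPM in the libraries labelled STOP and at 175 and 139 CPM in those labelled GO. The groups were separate but only just, and the log2 fold change of -0.26 (SE 0.15) did not pass (adjusted p = 0.302 by edgeR's quasi-likelihood test).

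Ctnnb1, which encodes the β-catenin of both Wnt signaling and cell junctions, was the most abundant of the 10 genes everywhere. In the tumor ECs it was at 440, 578 and 593 CPM in Apelin-depleted libraries and at 359 to 826 CPM in wild-type libraries, with a median of 438. The groups overlapped, and the log2 fold change was 0.13 (SE 0.29). Sprout ECs held 1263 and 1335 CPM in the libraries labelled STOP and 1695 and 1584 CPM in those labelled GO. Both libraries labelled STOP were lower, with a log2 fold change of -0.34 (SE 0.15) that did not pass (adjusted p = 0.201 by edgeR's quasi-likelihood test). These are transcript levels and give no measure of β-catenin protein.

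**Figure D4:**
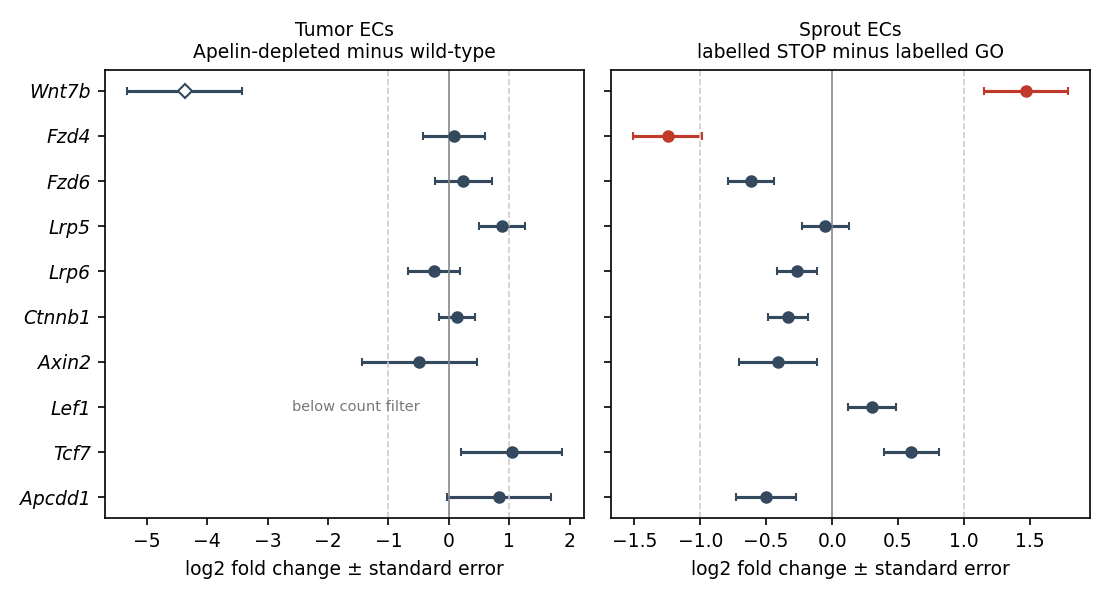
Log2 fold change ± standard error of the 10 genes, for Apelin-depleted over wild-type tumor ECs (left) and for libraries labelled STOP over GO (right), on axes of different width, with dashed lines at 1 and -1. Red points (Wnt7b and Fzd4 in sprout ECs) passed both thresholds, the open diamond is the tumor value of Wnt7b, given without a test, and Lef1 was not tested in tumor ECs.

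Axin2, often read as a gauge of canonical signaling, was low in tumor ECs. It was at 5.78, 6.68 and 3.41 CPM in Apelin-depleted libraries, and in wild-type libraries the lowest, median and highest values were 0.884, 7.25 and 15.5 CPM. The depleted libraries lay inside the wild-type range (log2 fold change -0.49, SE 0.95), so with this spread a change of Axin2 of the size of 1 log2 unit was not detectable. Axin2 in the sprout ECs was at 24.7 and 13.8 CPM in the libraries labelled STOP and at 28.5 and 22.8 CPM in those labelled GO. The pairs overlapped, and the log2 fold change was -0.41 (SE 0.29, adjusted p = 0.409 by edgeR's quasi-likelihood test).

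Apcdd1 varied widely between tumor libraries. It was at 9.52, 4.57 and 33.5 CPM in Apelin-depleted libraries and from 0.869 to 22.2 CPM in wild-type libraries, with a log2 fold change of 0.83 (SE 0.86). Without Apelin-depleted replicate 3, the highest library, the log2 fold change turned to -0.34 (SE 1.08). Apcdd1 in the sprout ECs was at 17.5 and 20.9 CPM in the libraries labelled STOP and at 31.7 and 22.5 CPM in those labelled GO, separate by a small gap (log2 fold change -0.50, SE 0.23, adjusted p = 0.209 by edgeR's quasi-likelihood test).

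Lef1 was low in the tumor ECs. Its counts were 82, 15 and 0 in Apelin-depleted replicates 1 to 3 and between 1 and 5 in the wild-type libraries, so it did not reach the count filter and was not tested. In CPM this was 13.9, 1.06 and 0 against 0.195 to 0.695. A single library held most of the signal. Lef1 was abundant in the sprout ECs, at 80.8 and 60.8 CPM in the libraries labelled STOP and at 52.6 and 62.5 CPM in those labelled GO, with overlapping groups (log2 fold change 0.30, SE 0.18, adjusted p = 0.322 by edgeR's quasi-likelihood test).

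Tcf7 was at 3.91, 21.1 and 21.1 CPM in the Apelin-depleted tumor ECs, and in wild-type libraries its lowest, median and highest values were 1.37, 8.64 and 13.2 CPM. The groups overlapped through depleted replicate 1, and the log2 fold change was 1.04 (SE 0.83). Tcf7 in the sprout ECs was at 126 and 82.4 CPM in the libraries labelled STOP and at 66.7 and 70.8 CPM in those labelled GO. Both libraries labelled STOP were higher, replicate 1 by far the most, as it also was for Wnt7b, and the log2 fold change of 0.60 (SE 0.21) did not pass (adjusted p = 0.126 by edgeR's quasi-likelihood test).

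Tcf7 and Lef1 are also well known as transcription factors of T cells, and some T cell markers were counted more in Apelin-depleted tumor ECs, although the sort removed CD45+ cells. The 9 listed markers summed to 74.8 to 225 CPM in Apelin-depleted and to 15.3 to 96.5 CPM in wild-type libraries, and the log2 fold changes of the 4 that were tested lay between 0.44 and 6.02, with none past the thresholds. Cd2, an adhesion receptor of T and NK cells, was counted 128, 533 and 164 times in Apelin-depleted libraries and at most 8 times in any wild-type library (log2 fold change 6.02, adjusted p = 0.197 by edgeR's quasi-likelihood test). The mean of each of the 9 markers was higher in the depleted group, among them Cd3d (2.43 against 0.0937 CPM), Cd3g (11.1 against 0.190 CPM) and Cd5 (6.57 against 0.193 CPM), with wide spread between libraries: Cd3g was counted 5, 2 and 264 times in the depleted ones. In depleted replicates 1 to 3 the markers summed to 74.8, 225 and 143 CPM, beside 3.91, 21.1 and 21.1 CPM of Tcf7 and 13.9, 1.06 and 0 CPM of Lef1. Thy1, which other cell types also express, made up 11.4, 156 and 2.92 CPM of these sums. The part of such cells in the Tcf7 and Lef1 values was not tested.

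**Figure D5:**
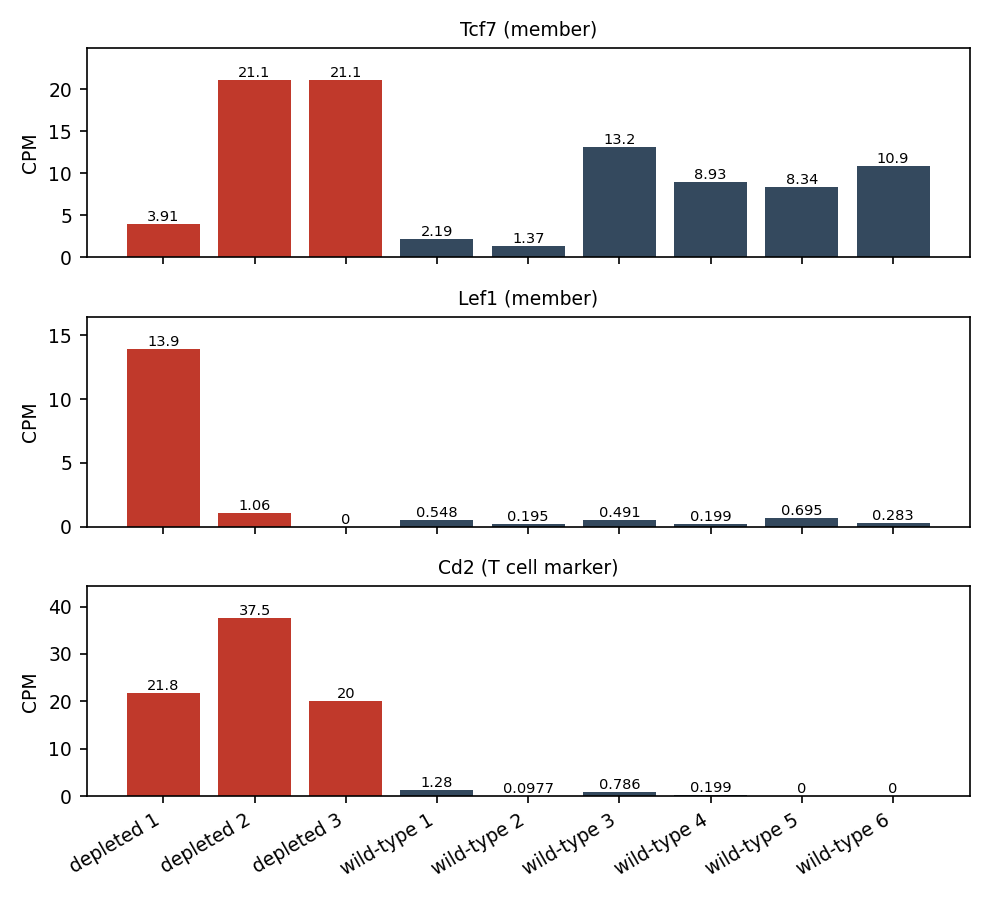
Tcf7, Lef1 and the T cell marker Cd2 in CPM in the 9 tumor EC libraries (bars from 0, value above each bar). Cd2 is at 20.0 to 37.5 CPM in the Apelin-depleted libraries and at most 1.28 CPM in wild-type ones, Lef1 is at 13.9 CPM in depleted replicate 1 and at most 1.06 CPM elsewhere, and Tcf7 is highest in depleted replicates 2 and 3.

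Counted together in the tumor ECs, 9 of the 10 genes passed the filter on low counts, and apart from Wnt7b none of the other 8 passed the test. With edgeR's quasi-likelihood test 0.00765% of all genes were decreased, which is Apln alone, and no gene was increased. At an unadjusted p under 0.05 only Lrp5 of those 8 was higher and none was lower, against 1.87% and 2.94% of all genes, and DESeq2, which decreased 0.635% of genes, also called 0 of the 8. Apart from Wnt7b, 1 of the 8, Lrp5, did not overlap between the groups, against 2.33% of all genes. A test at this spread can miss large changes, as the standard errors of 0.29 to 0.95 show.

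Counted together in the sprout ECs, all 10 genes passed the filter, 1 was increased (Wnt7b) and 1 was decreased (Fzd4), against 0.852% and 3.03% of all genes tested, or 3.88% in either direction. Before adjustment, 2 of the 10 were higher and 2 lower at p under 0.05, against 12.4% and 14.3% of all genes. The median log2 fold change of the 10 was -0.30, and that of all genes was 0.01. Between the groups 7 of the 10 did not overlap, 5 lower and 2 higher, against 29.6% and 31.0% of all genes. The sum of 7 in 10 is close to the 60.6% of all genes tested that did not overlap in this design of 2 against 2.

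By level per length, the order of the 10 genes differed between the sets. In wild-type tumor ECs Ctnnb1 led at 142 ± 48.8 CPM per kilobase, followed by Fzd4, Fzd6, Lrp5 (8.51 ± 3.12) and Wnt7b, and Lef1 was last at 0.134 ± 0.0688. Neighbours from Fzd4 to Apcdd1 (3.18 ± 2.55) did not differ beyond their spread. In the libraries labelled GO Ctnnb1 led at 746 ± 91.2 TPM, followed by Tcf7 (44.9 ± 1.81), Lef1 (30.7 ± 2.31) and Lrp5 (30.5 ± 8.80), and Wnt7b was last. Thus Tcf7 and Lef1, in the lower part of the order in wild-type tumor ECs, ranked next to Ctnnb1 in sprout ECs, where pluripotency markers were also abundant. The sets were prepared and scaled differently, so their levels were not compared directly.

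The promoter stretches of Axin2, Lef1 and Fzd4 are shown because Axin2 and Lef1 are textbook targets and Fzd4 passed the test in sprout ECs. They are RefSeq sequences on GRCm38.p6, plus strand, 5′ to 3′, each before an annotated start, and capitals mark the letters TCAAAG, the reverse complement of the Tcf/Lef core CTTTGA. Both strands were searched in the 250 bases before each start. RefSeq promoters were held for 5 of the 10 genes, Fzd4, Ctnnb1, Axin2, Lef1 and Tcf7, and of these only Lef1 had a match, before 1 of its 4 starts. The letters occurred in 13.8% of 32851 such windows and in 15.8% of 27025 genes with any window.
Axin2, chr11:108920099-108920348: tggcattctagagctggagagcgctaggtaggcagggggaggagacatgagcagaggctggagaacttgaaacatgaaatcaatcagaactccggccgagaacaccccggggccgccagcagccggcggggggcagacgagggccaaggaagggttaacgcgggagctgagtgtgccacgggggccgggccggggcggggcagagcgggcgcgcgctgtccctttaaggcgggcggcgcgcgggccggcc
Lef1, chr3:131156044-131156293: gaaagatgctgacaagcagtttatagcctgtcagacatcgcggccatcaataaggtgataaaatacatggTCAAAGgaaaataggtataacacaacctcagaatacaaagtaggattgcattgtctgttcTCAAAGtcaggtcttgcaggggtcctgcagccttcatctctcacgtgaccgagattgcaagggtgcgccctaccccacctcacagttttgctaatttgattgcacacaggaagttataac
Fzd4, chr7:89404223-89404354: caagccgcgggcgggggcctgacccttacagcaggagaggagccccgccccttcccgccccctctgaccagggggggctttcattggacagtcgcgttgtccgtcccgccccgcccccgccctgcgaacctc
The Axin2 stretch overlaps no GENCODE exon, lies inside the span that RefSeq gives the gene (chr11:108917828-108950783) and has a GC content of 69.2%. The Lef1 stretch lies in an intron before an internal start, with the letters 180 and 120 bases before it and a GC content of 44.8%. The Fzd4 stretch is the 132 bases of its window that overlap no exon, between exons of Fzd4 and of the neighbouring Tmem135. A match is only a run of letters, and these counts do not separate transcripts by start site.

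Beyond the 10 genes, 102 other genes of the pathway were listed. In the tumor ECs 67 were tested and none passed, of which 35 lay lower and 32 lay higher. Their median log2 fold change was -0.02, against -0.03 for all genes. Before adjustment, 4 were lower and 0 higher at p under 0.05, against 2.94% and 1.87% of all genes, and DESeq2 called none. Among the 67, a pair of genes separated the groups, 1 lower and 1 higher, against 1.27% and 1.06% of all genes. The lower one was Btrc, the ubiquitin ligase subunit that marks β-catenin for degradation. It was at 11.6, 5.42 and 9.87 CPM in Apelin-depleted libraries and between 12.02 and 33.3 CPM in wild-type ones, with a log2 fold change of -1.48 (SE 0.56, adjusted p = 0.957 by edgeR's quasi-likelihood test). The higher one was Trabd2b, a membrane metalloprotease that inactivates Wnt proteins, at 4.59 to 13.0 CPM in depleted and at most 3.57 CPM in wild-type libraries, with a log2 fold change of 2.09 (SE 1.12, adjusted p = 1.00 by edgeR's quasi-likelihood test). Tcf7l1, a mostly repressive Tcf factor, overlapped and had a log2 fold change of -1.03 (SE 0.40, adjusted p = 0.965 by the same edgeR test). Rspo4, an R-spondin that potentiates Wnt signaling, was counted 0 times in all depleted libraries, and 233 of its counts came from wild-type replicate 2. Fzd10, a further Frizzled receptor, was counted at most 2 times in depleted and up to 54 times in wild-type libraries.

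In the sprout ECs 91 of the 102 were tested, 5 were decreased and none was increased, against 3.03% and 0.852% of all genes. Of the 91, 65 lay lower and 26 lay higher. The median log2 fold change of these genes was -0.24, against 0.01 for all genes. That of the 12 EC markers, all lower in the same libraries, was -1.96, and its part in the values of the 91 genes was not tested. Before adjustment, 19 were lower and 5 higher at p under 0.05, against 14.3% and 12.4% of all genes, and DESeq2 called 9 decreased, against 4.68% of all genes, and 0 increased. The 5 decreased genes became 0 without STOP replicate 1 or GO replicate 1, 3 without STOP replicate 2 and 6 without GO replicate 2, and 0 with the replicate number as a block.

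Tspan12, the tetraspanin partner of Fzd4, was among the decreased genes. It was at 5.15 and 6.52 CPM in the libraries labelled STOP and at 14.7 and 14.3 CPM in those labelled GO, a log2 fold change of -1.32 (SE 0.26, adjusted p = 0.0300 by edgeR's quasi-likelihood test). Rspo3, an R-spondin active in vessels, fell from 16.0 and 13.2 CPM to 4.27 and 6.27 CPM, a log2 fold change of -1.48 (SE 0.30, adjusted p = 0.0301 by the same edgeR test). The other decreased genes were low throughout. Cdx2, a Wnt-responsive factor of the posterior embryo, had 9 and 10 counts against 53 and 40. Sost, a secreted inhibitor that binds Lrp5 and Lrp6, had 16 and 15 counts against 101 and 44, and the ligand gene Wnt1 had 2 and 1 counts against 23 and 11.

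A further list held 15 EC genes linked to Wnt signaling at the blood-brain barrier or, like Plvap, opposed to it. In the tumor ECs 10 were tested and none passed, 3 lower and 7 higher. Before adjustment 1 was lower and 0 higher at p under 0.05, against 2.94% and 1.87% of all genes. The lower one was Slc7a5, an amino acid transporter gene, at 13.2 to 33.3 CPM in Apelin-depleted and 23.8 to 77.1 CPM in wild-type libraries (log2 fold change -1.15, SE 0.48, adjusted p = 0.981 by edgeR's quasi-likelihood test). Of the same list, 14 were tested in the sprout ECs, 7 lower and 7 higher (median log2 fold change -0.11). Before adjustment 6 were lower and 2 higher at p under 0.05, against 14.3% and 12.4% of all genes. With both thresholds 5 were decreased, against 3.03% of all genes. The tight junction gene Cldn5 was at 17.7 and 33.6 CPM in the libraries labelled STOP against 96.4 and 122 CPM in those labelled GO (log2 fold change -2.10, SE 0.33, adjusted p = 0.0327 by edgeR's quasi-likelihood test), and it is also one of the 12 EC markers. Plvap, a gene of leaky vessels that barrier ECs switch off, moved the same way (log2 fold change -1.91, SE 0.17), as did the transcription factor genes Sox17 (-1.98, SE 0.30), Foxq1 (-1.82, SE 0.27) and Foxf2 (-2.67, SE 0.55). Among these 5, genes of barrier and of leaky vessels thus fell together, while the list as a whole ran both ways. The EC marker median was -1.96.

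Other cell types differed between libraries in ways that touch the values above. In the tumor ECs 8 of 9 tested markers of mural cells and fibroblasts were lower in the Apelin-depleted group, the direction of Wnt7b, none past the thresholds (median log2 fold change -2.10). Pdgfrb, a receptor of pericytes, was at 0.141 to 2.44 CPM in depleted and 3.65 to 168 CPM in wild-type libraries, and the collagen gene Col3a1 at 1.97 to 23.1 and 28.3 to 1219 CPM, both without overlap. The 10 listed markers summed to 83.2 to 220 CPM in depleted libraries, to 83.7 to 380 CPM in 5 wild-type libraries and to 4707 CPM in wild-type replicate 2, the library with the highest Wnt7b. Without that library the log2 fold change of Wnt7b was -4.03, and the part of such cells in its values was not tested. The 10 epithelial markers, which would include tumor cells, were low in both groups, at 11.3 to 51.3 CPM and 10.8 to 67.5 CPM. In the sprout ECs epithelial markers summed to 813 to 1060 CPM in the libraries labelled STOP and to 624.9 to 691 CPM in those labelled GO, the direction of Wnt7b. That sum was carried by Cdh1 and Epcam, which stem cells also express, and single markers ran both ways: of 9 tested, 5 lay lower and 4 lay higher (median log2 fold change -0.22). Before adjustment 3 of these epithelial markers were higher and 0 lower at p under 0.05, against 12.4% and 14.3% of all genes. Their part in the Wnt7b values was not tested. Of 10 tested mural and fibroblast markers in the sprout ECs, 9 lay lower in the libraries labelled STOP. None passed the thresholds (median log2 fold change -0.74). Their sums overlapped, at 486 and 2663 CPM in STOP replicates 1 and 2 and at 2954 and 654 CPM in GO replicates 1 and 2. Within each group Wnt7b and Tcf7 were higher in the library with the lower sum. The part of such cells in the values of the 10 genes was not tested. Markers of erythroid cells and megakaryocytes lay lower in the libraries labelled STOP, as Fzd4 was, with 7 of 7 tested lower and none past the thresholds. Of the 7, 4 were lower at an unadjusted p under 0.05, against 14.3% of all genes. The erythroid and megakaryocyte markers summed to 20.5 to 67.8 CPM in the libraries labelled STOP and to 215 to 321 CPM in those labelled GO. In the tumor ECs the 10 macrophage markers summed to 977 CPM in depleted replicate 1, the library with most of the Lef1 counts, to 10.3 to 54.6 CPM in the other depleted libraries and to 50.3 to 667 CPM in wild-type libraries. The part of these cells in the Fzd4 and Lef1 values was not tested.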

How the data were processed

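RNA-Seq libraries of tumor ECs (9) and sprout ECs (4) were analysed, each set in a fit of its own. For the tumor ECs the authors deposited whole-number counts per gene without normalization, made with featureCounts of Subread 1.6.2 on mm10. The methods of the study name STAR as the aligner, whereas the submitters' processing notes name Trim Galore 0.5.0, Bowtie2 2.3.4.1 and SAMtools 1.9. For the sprout ECs the authors deposited counts from STAR 2.5.0a and HTSeq 0.6.1p1, and the expected counts and TPM of RSEM 1.2.25. HTSeq leaves out reads that align to several places, and RSEM shares them out. Lines of unassigned reads stayed out of library sizes. HTSeq's tally of alignments that were not unique made up 42.6% to 49.6% of gene counts and unassigned lines together. This tally was not converted to a share of reads.

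Counts were fitted with edgeR 4.0.16 in R 4.3.3 (TMM scaling, filterByExpr with a minimum count of 10, quasi-likelihood test, Benjamini-Hochberg adjustment over 13073 and 14557 genes). A gene passed with an adjusted p below 0.05 and a log2 fold change beyond 1 in either direction. CPM used TMM-scaled library sizes. Tumor CPM were divided by the RSEM gene length in the sprout files. The deposited TPM were used as given. Alternatives were DESeq2 1.42.0, its size factors in edgeR, no count filter, the replicate number as a block, rounded RSEM expected counts and each library left out in turn. The scripts were tested on simulated counts. The genes and all lists were chosen with earlier results of these data known. Named were all 10 genes, the genes of the other lists past the thresholds in sprout ECs (1 is not reported here), the 5 such genes of lowest p in tumor ECs, and the 3 nearest to Wnt7b. Btrc was described in more detail after its values were seen, and so were Trabd2b and the single cell type markers. Floors cover counting error only, whereas SDs and standard errors include the spread between libraries. RefSeq promoters were held for 5 of the 10 genes.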

Additional observations from a re-analysis of the deposited data

Results flagged for a closer look

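In wild-type tumor ECs, Ctnnb1 stood apart in 1 of 6 libraries: replicate 3 held 826 CPM, the next library 468 CPM and the lowest 359 CPM. The gap to the next library was 0.766 of the whole range, above the 95% critical value of 0.625 in Dixon's test for 6 samples. The 10 genes were each examined in this group, and chance alone singles out about 1 in 20 such groups.

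Wnt7b moved in opposite directions in the sets, with all Apelin-depleted tumor libraries lower (log2 fold change -4.37) and all sprout libraries labelled STOP higher (1.47). The difference between the sets was not tested, and in the libraries labelled STOP Apln itself was not lower.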

How the results depend on the processing

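In the tumor ECs, genes decreased over all those tested numbered 94 with DESeq2, 7 without a count filter, 2 with the replicate block and 1 to 2 with a library left out (2 without depleted replicate 1), and genes increased numbered 19 with DESeq2, 9 without a count filter and 0 with any library left out. In the sprout ECs, where 441 genes were decreased and 124 increased, the counts were 41 and 3 with the replicate block and 135 to 548 and 12 to 341 with a library left out, the lower counts coming without STOP replicate 1 (136 and 12) or GO replicate 1 (135 and 19) and the 341 without GO replicate 2. Increased genes numbered 197 with DESeq2 and 222 without a filter. Of the 10 genes, 0 were decreased and 0 increased with the replicate block or with RSEM expected counts, and 0 to 1 each with a library left out. Of the 102 other pathway genes, decreased ones numbered 9 with DESeq2, 8 without a filter, 3 with RSEM expected counts, 0 with the replicate block and 0 to 6 with a library left out, and increased ones 0 to 1 with a library left out. The causes were not tested.

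Same-numbered libraries did not deviate together (correlations of -0.07, 0.06 and -0.14 in tumor ECs and -0.43 in sprout ECs), so the numbers were not taken as pairs. With 2 libraries per group the deviations within a group mirror each other. The sprout value with its sign turned thus holds for crossed numbers, so STOP replicate 1 deviated with GO replicate 2. The cause was not tested. With the block, Wnt7b in sprout ECs had a log2 fold change of 1.43 (edgeR adjusted p = 0.149) and Fzd4 of -1.21 (edgeR adjusted p = 0.125), and the tumor values turned to -0.22 for Fzd6 and 0.45 for Axin2. With the numbers crossed, a pairing chosen after seeing the data, 933 genes were decreased and 302 increased in sprout ECs, and of the 102 genes 12 and 1.

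With a library left out, tumor log2 fold changes ran from -5.18 to -4.03 for Wnt7b, -0.17 to 0.33 for Fzd4, -0.032 to 0.58 for Fzd6, -0.50 to 0.046 for Lrp6 and -0.34 to 1.34 for Apcdd1. In sprout ECs they ran from -0.25 to 0.19 for Lrp5, 1.04 to 1.80 for Wnt7b, -1.52 to -0.89 for Fzd4, -0.87 to -0.070 for Axin2, 0.28 to 0.86 for Tcf7, 0.10 to 0.48 for Lef1, -0.72 to -0.23 for Apcdd1 and -0.42 to -0.085 for Lrp6. A lone library left in a group was assumed to vary like the others. Apart from these and the RSEM expected counts for Wnt7b and Fzd4, the settings run kept the direction and call of the 10 genes. In tumor ECs Lef1 stayed below the count filter at this depth.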
